A study of Arabidopsis thaliana with 4 samples.

Results

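Transcript levels of 32 Arabidopsis thaliana genes of chlorophyll synthesis and breakdown were followed in rosette leaves of plants carrying the wheat kinase TaSK5. Of these loci, 22 encode enzymes and subunits of the synthesis pathway, from HEMA1 to CAO and CHLG, and 10 encode proteins of breakdown. They were chosen by locus identity, with no measured value in the rule, and were looked up among the 21500 gene probes of the arrays through the locus name of each probe. The arrays carried 31 of the 32 genes, each with 1 probe. SGR2 (AT4G11910), a homologue of the stay-green gene SGR1, was not analysed here, as no probe was found under its locus. The synthesis gene PORA (AT5G54190) was too dim to pass the filter, which asked that a probe exceed background clearly in every TaSK5 channel or in every wild-type channel of the 4 arrays. This left 30 members, 21 of synthesis and 9 of breakdown, among 18854 genes tested.

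TaSK5, a wheat kinase of the GSK3/Shaggy-like family, was placed under the constitutive 35S promoter in the Col-0 ecotype. The transformants OX7 and OX17 arose separately and were of the first transgenic generation (T1), each 1 plant, so line and plant cannot be told apart, and untransformed Col-0 served as wild type. All plants were 3 weeks old and untreated, and grew at 22 °C with 16 h of light and 8 h of darkness. RNA of each transformant was hybridised against wild-type RNA on 2 two-colour arrays with the dyes exchanged, replicate 1 with TaSK5 RNA in Cy5 and replicate 2 with it in Cy3, so 4 arrays stood for n = 2 transformants. A 35S transgene is expressed in most cell types, and whether the wild-type RNA of the 2 transformants came from the same plants is not given in the sources used here. All values are log2 ratios of TaSK5 plant over wild type after loess normalisation within an array, so 1 stands for a doubling and -1 for a halving, and each is measured against the typical gene of similar brightness on that array. In whole leaves, fewer cells of a type and less RNA per cell cannot be told apart.

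Depending on the array, 86.4% to 95.9% of gene probes exceeded background clearly with TaSK5 RNA and 88.9% to 96.0% with wild-type RNA. Having only 4 arrays limits the precision of all values. Log ratios across all genes had an SD of 0.24 in OX7 and 0.50 in OX17, so OX17 differed more widely from wild type. The 5 mesophyll markers examined, among them RBCS1A and CA1, were well above background in all 8 channels. Of 4 root markers 1 was, and of 4 floral markers 2 were. The TaSK5 transcript itself was not analysed here.

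Chlorophyll is built in plastids from glutamate. A common tetrapyrrole route leads through 5-aminolevulinic acid to protoporphyrin IX, where a branch inserts magnesium and proceeds through protochlorophyllide, which light reduces, to chlorophyllide and chlorophyll a and b. Free intermediates are phototoxic, and the pathway is known to be controlled at its entry, at the magnesium branch point and at the light-dependent step. In ageing or stressed leaves, chlorophyll b is converted to a, magnesium and phytol are removed, and PAO opens the ring in the route that gives leaves their loss of green colour.

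The question was how synthesis and breakdown genes stood against each other in TaSK5 plants, taken from each transformant in turn. In OX17, 20 of the 21 synthesis genes were lower than in wild type on both arrays, with a median log2 ratio of -0.77, where 33.2% of all tested genes were lower on both. The breakdown genes had a median of 0.40 in OX17, with 4 higher and 2 lower on both arrays, where 31.4% of all tested genes were higher on both. In OX7 the synthesis genes had a median of 0.14, with 11 higher and 5 lower on both arrays, against 30.2% and 31.1% of all tested genes, but with median centring in place of loess that median was -0.16, with 3 higher and 12 lower, against 31.1% and 44.2%. The breakdown genes had a median of 0.051 in OX7, with 3 higher and 4 lower on both arrays, but with median centring the median was -0.22, with 0 higher and 7 lower. All genes tested had medians of -0.0027 in OX7 and -0.012 in OX17.

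By array, the breakdown median minus the synthesis median was -0.19 and -0.17 on OX7 replicates 1 and 2 and 1.09 and 0.92 on OX17 replicates 1 and 2. Both OX17 arrays thus had breakdown above synthesis, and both OX7 arrays had it slightly below. In the mean of both transformants the difference was 0.59, with the transformants on either side of 0. The plot of synthesis and breakdown genes on each array shows the synthesis genes below the middle of all genes on both OX17 arrays.

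**Figure D1:**
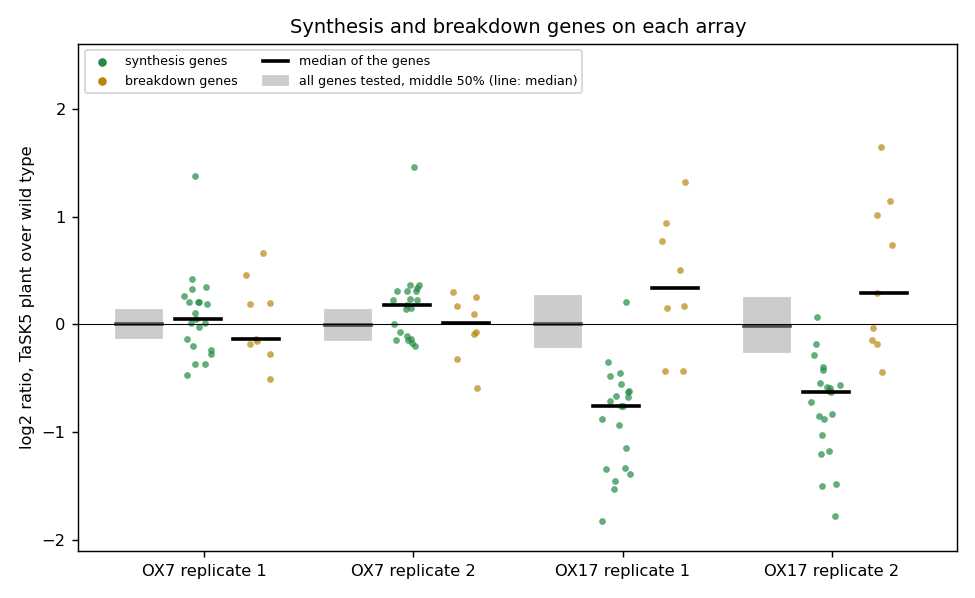
Log2 ratio of TaSK5 plant over wild type (vertical axis) for 21 synthesis and 9 breakdown genes on each of the 4 arrays, with 1 point per gene, black bars for their medians and grey boxes for the middle 50% of all genes tested. On OX17 arrays the synthesis medians lay at -0.75 and -0.63 and the breakdown medians at 0.34 and 0.29; on OX7 arrays the synthesis medians lay at 0.054 and 0.18 and the breakdown medians at -0.14 and 0.012. CLH1 is shown on 2 arrays only, because its spots on the others were marked as outliers.

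No single gene passed the test across both transformants. In the limma fit to the mean of each transformant, 0 of 18854 genes (0%) and 0 of the 30 members had a Benjamini-Hochberg adjusted p under 0.05, and the smallest adjusted p of any gene was 0.846. An unadjusted p under 0.05 was found for 825 genes (4.38%), among them 2 members, PPH and CLH2. A fit that took each of the 4 arrays for a separate plant, although 2 shared each RNA pair, called 79 genes and 0 members. Of the 29 members measured on every array, 7 were lower on all 4, where 12.2% of all tested genes were, and 4 were higher on all 4, where 12.4% were. With loess the 7 lower members were GSA1, GSA2, HEMB1, LIN2, DVR, HCAR and CLH2, and the 4 higher members were CAO, NYC1, SGR1 and PPH. The counts depended on the normalisation. With median centring 11 synthesis genes in place of 5 were lower on all 4 arrays. For higher breakdown genes the count was 0 in place of 3. With OX7 replicate 2 left out, 8 synthesis genes were lower on every remaining array. That is a looser count, and its share of all tested genes is not given. Median centring also moved the shares of all tested genes. They were 31.1% higher and 44.2% lower on both OX7 arrays, and 21% each on both OX17 arrays. The share on all 4 arrays is not given for that setting. No member was at least 2-fold different the same way on all 4 arrays, where 0.249% of tested genes were 2-fold higher and 0.0325% were 2-fold lower. The p-values weigh each mean against the spread between the 2 transformants. In simulated data the same fit called 0% of 2-fold, 2.39% of 4-fold and 22.0% of 8-fold changes. A gene that did not pass may therefore still differ at the sizes seen here.

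**Figure D2:**
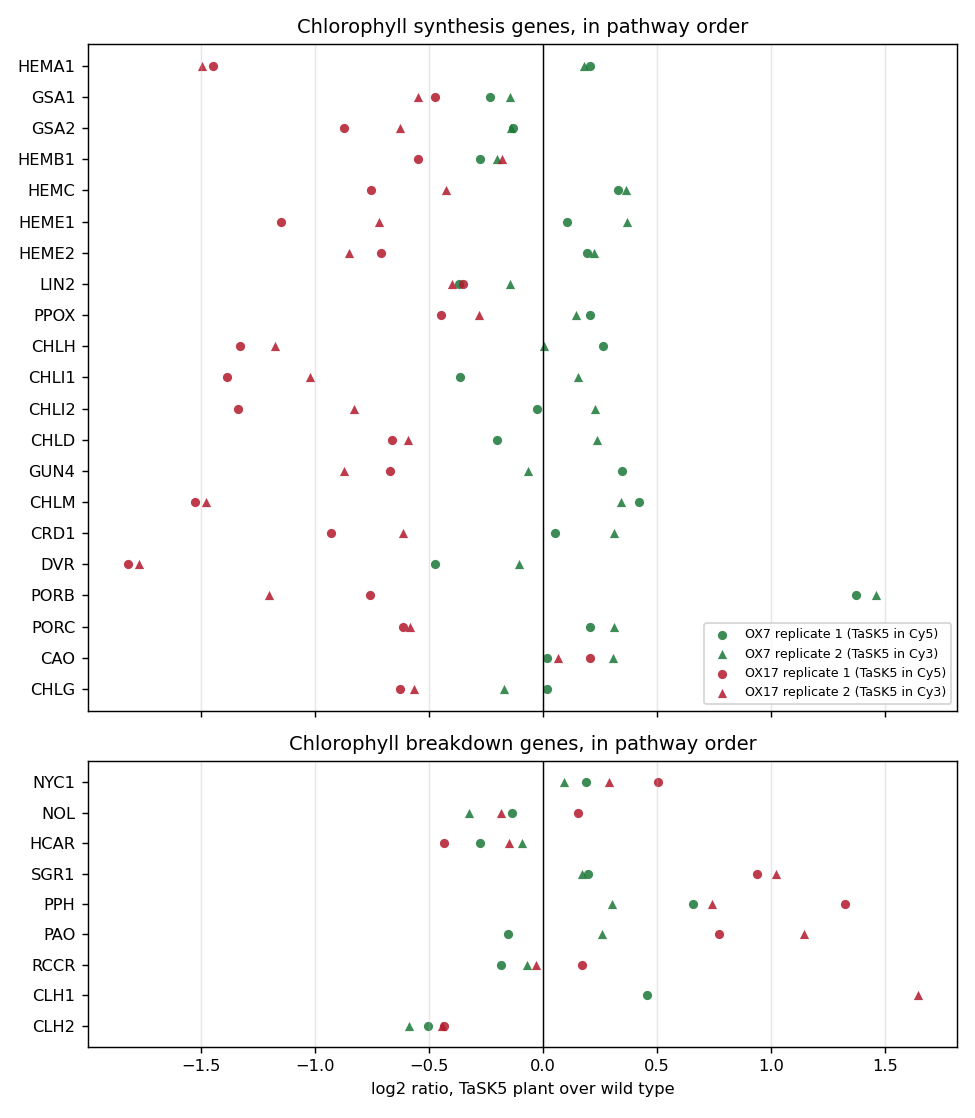
Log2 ratio of TaSK5 plant over wild type (horizontal axis) on each array for the 30 tested members, in pathway order from top to bottom, with green for OX7, red for OX17, circles for replicate 1 and triangles for replicate 2. OX17 symbols lie left of 0 for every synthesis gene except CAO and right of 0 for SGR1, PPH and PAO, and PORB lies far to the right in OX7, at 1.37 and 1.46.

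The entry of the pathway makes 5-aminolevulinic acid. HEMA1 (AT1G58290), the glutamyl-tRNA reductase that performs its committed step, had log2 ratios of 0.20 and 0.18 in OX7 and -1.45 and -1.50 in OX17. It was slightly higher in OX7 and 2.77-fold lower in OX17, with no overlap of the arrays, although with median centring its OX7 arrays stood at 0.010 and -0.25. GSA1 (AT5G63570) and GSA2 (AT3G48730) encode the aminotransferase that follows. The log2 ratios of GSA1 were -0.23 and -0.15 in OX7 and -0.47 and -0.55 in OX17. Those of GSA2 were -0.13 and -0.14 in OX7 and -0.87 and -0.63 in OX17. Both genes were lower on all 4 arrays, by a mean of -0.35 ± 0.23 (SD, n = 2 transformants) for GSA1 and -0.44 ± 0.43 for GSA2, and both were lower in OX17 than in OX7.

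The next enzymes assemble and oxidise the porphyrin ring and are shared with haem synthesis. HEMB1 (AT1G69740), which joins aminolevulinic acid into porphobilinogen, had log2 ratios of -0.28 and -0.20 in OX7 and -0.55 and -0.18 in OX17. LIN2 (AT1G03475), coproporphyrinogen oxidase, had log2 ratios of -0.37 and -0.15 in OX7 and -0.35 and -0.40 in OX17. In both genes the arrays of the transformants overlapped, and the means, -0.30 ± 0.089 for HEMB1 and -0.32 ± 0.084 for LIN2, had the smallest spreads between transformants among the synthesis genes after CAO.

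The other 4 porphyrin genes were higher on both OX7 arrays and lower on both OX17 arrays. HEMC (AT5G08280), porphobilinogen deaminase, had log2 ratios of 0.33 and 0.36 in OX7 and -0.75 and -0.42 in OX17. The uroporphyrinogen decarboxylase genes HEME1 (AT3G14930) and HEME2 (AT2G40490) followed the same order, with HEME1 at 0.11 and 0.37 in OX7 and -1.15 and -0.72 in OX17. HEME2 stood at 0.19 and 0.22 in OX7 and -0.71 and -0.85 in OX17. PPOX (AT4G01690), protoporphyrinogen oxidase, the last enzyme before the branch, had the smallest gap of these 4, with 0.20 and 0.14 in OX7 and -0.45 and -0.28 in OX17. With median centring, PPOX was lower on both OX7 arrays, at -0.045 and -0.17, HEME1 had opposite signs on them, and HEMC and HEME2 stayed above 0.

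At the branch point, magnesium chelatase inserts magnesium into protoporphyrin IX. Its subunits are CHLH, which binds the porphyrin, CHLI, which hydrolyses ATP, and CHLD, which assembles with CHLI. GUN4 stimulates the enzyme. All 6 genes of this step and of the methyltransferase that follows were lower on both OX17 arrays, with a median of -1.14, the lowest of the pathway sections, and had a median of 0.12 in OX7, where their means ran from -0.10 for CHLI1 to 0.38 for CHLM. CHLH (AT5G13630, also named GUN5) had log2 ratios of 0.26 and 0.0027 in OX7 and -1.33 and -1.17 in OX17, that is 2.38-fold lower in OX17. With median centring its OX7 arrays had opposite signs, at 0.11 and -0.45.

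CHLI1 (AT4G18480), the main ATPase subunit, had log2 ratios of -0.36 and 0.15 in OX7 and -1.39 and -1.02 in OX17. Its homologue CHLI2 (AT5G45930) had -0.027 and 0.23 in OX7 and -1.34 and -0.83 in OX17. CHLD (AT1G08520) and GUN4 (AT3G59400) were less low in OX17, with means of -0.63 and -0.77 there and of 0.018 and 0.14 in OX7. With loess the 4 genes had opposite signs on the 2 OX7 arrays, so OX7 showed no direction for them. With median centring CHLI1, at -0.60 and -0.24, and CHLD, at -0.43 and -0.067, were lower on both OX7 arrays. CHLI2 and GUN4 still had opposite signs. Binding of CHLI1 transcripts to the CHLI2 probe, or the reverse, was not tested.

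CHLM (AT4G25080), which methylates magnesium protoporphyrin, had the second-widest gap between the transformants among the members. Its log2 ratios were 0.42 and 0.34 in OX7 and -1.53 and -1.48 in OX17, so it was higher in OX7 and 2.83-fold lower in OX17. With median centring its OX7 arrays had opposite signs, at 0.20 and -0.064, while OX17 stayed low.

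Later steps form the fifth ring and give protochlorophyllide, then chlorophyllide. CRD1 (AT3G56940, also CHL27), a component of the ring-forming cyclase, had log2 ratios of 0.054 and 0.31 in OX7 and -0.93 and -0.61 in OX17, but with median centring it was slightly below 0 on the OX7 arrays too. DVR (AT5G18660), which reduces a vinyl side chain of the intermediates, had -0.47 and -0.11 in OX7 and -1.82 and -1.77 in OX17. DVR had the lowest mean of all 30 members, -1.04 ± 1.07 (SD, n = 2 transformants), and was 1.22-fold lower in OX7 and 3.47-fold lower in OX17, with an adjusted p of 0.846 in the limma test.

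The 3 protochlorophyllide oxidoreductases, which carry out the light-dependent step, differ in when they are used: in Arabidopsis, PORA serves mainly in seedlings that emerge from darkness and PORB and PORC in green leaves. PORB (AT4G27440) had the widest gap between transformants of all members. Its log2 ratios were 1.37 and 1.46 in OX7 and -0.76 and -1.20 in OX17. It was 2.67-fold higher than wild type in OX7 and 1.97-fold lower in OX17, and its wild-type channel differed little between the array pairs, by 0.15 on the log2 signal scale.

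PORC (AT1G03630) had log2 ratios of 0.20 and 0.31 in OX7 and -0.62 and -0.58 in OX17, in the same order as PORB but over a narrower range. With median centring PORC was lower on both OX7 arrays, at -0.037 and -0.070, and PORB kept its sign on every array. PORA was not well above background in any wild-type channel or in OX17. It was well above background in the TaSK5 channel on both OX7 arrays, with log2 ratios of 0.47 and 0.96 over wild type. On average this was 1.64-fold, from a mean log2 signal of 6.96 against 6.25 in wild type. As that wild-type signal was near background, these ratios are uncertain. PORA and PORB thus shared their direction in OX7, PORA without a test because it was outside the filter, and signal of the PORB transcript at the PORA probe was not tested.

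CHLG (AT3G51820), chlorophyll synthase, attaches the phytol chain at the end of the pathway and had log2 ratios of 0.015 and -0.17 in OX7 and -0.63 and -0.56 in OX17. CAO (AT1G44446), the oxygenase that makes the b form, was the only synthesis gene not lower in OX17. Its log2 ratios were 0.015 and 0.31 in OX7 and 0.20 and 0.065 in OX17, higher on all 4 arrays by a mean of 0.15 ± 0.019 (SD, n = 2 transformants), although with median centring its mean was -0.036. CAO differed between the array pairs in both channels alike, by -1.37 in the TaSK5 channel and -1.35 in the wild-type channel (OX17 minus OX7 arrays, log2 signal), which cancels in its ratios.

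In breakdown, chlorophyll b must first be turned into a. NYC1 (AT4G13250), a chlorophyll b reductase, had log2 ratios of 0.19 and 0.092 in OX7 and 0.50 and 0.29 in OX17, higher on all 4 arrays by less than 1.5-fold, but with median centring lower on 3 of them. Its partner NOL (AT5G04900) stood at -0.23 in OX7 and -0.017 in OX17. HCAR (AT1G04620), which completes the conversion, was lower on all 4 arrays, with means of -0.18 and -0.29. The 3 genes of b-to-a conversion therefore did not share a direction.

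The genes that remove magnesium and phytol and open the ring include SGR1, PPH and PAO, all of which were higher on both OX17 arrays. SGR1 (AT4G22920), the stay-green magnesium dechelatase, had log2 ratios of 0.20 and 0.17 in OX7 and 0.94 and 1.02 in OX17. It was higher on all 4 arrays, 1.14-fold in OX7 and 1.97-fold in OX17. PPH (AT5G13800), the pheophytinase that acts after it, had 0.66 and 0.30 in OX7 and 1.32 and 0.74 in OX17, with a mean of 0.76 ± 0.39 (SD, n = 2 transformants), 1.39-fold in OX7 and 2.04-fold in OX17. PPH was the member with the largest mean among those measured and higher on all 4 arrays (limma adjusted p = 0.846).

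PAO (AT3G44880), pheophorbide a oxygenase, which opens the ring, had log2 ratios of -0.16 and 0.26 in OX7 and 0.77 and 1.15 in OX17. In OX17 it was 1.94-fold higher, near the values of SGR1 and PPH, and in OX7 its arrays lay on either side of 0. RCCR (AT4G37000), which reduces the red product of PAO, stood at -0.13 in OX7 and 0.070 in OX17, and its mean of -0.028 changed sign under 2 of 13 alternatives. With median centring SGR1 was slightly below 0 on both OX7 arrays, at -0.043 and -0.12. PAO was also below 0 on both, at -0.40 and -0.043, and PPH stood at 0.41 and -0.044. SGR1, PAO and PPH stayed above 0 on the OX17 arrays.

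The chlorophyllases CLH1 and CLH2 cut phytol from chlorophyll in the test tube, and their part in leaf senescence is disputed. CLH1 (AT1G19670, also CORI1, induced by jasmonate and coronatine) had a usable spot on 1 array of each transformant, at 0.45 on OX7 replicate 1 and 1.64 on OX17 replicate 2. With the spots marked as outliers kept, its ratios were 0.65 on OX7 replicate 2 and 1.64 on OX17 replicate 1, so all 4 arrays were then higher. Its mean over the other spots, 1.05 ± 0.84 (SD, n = 2 transformants), was the highest of all members, with OX7 measured only with TaSK5 RNA in Cy5 and OX17 only with it in Cy3, which leaves the dyes unbalanced. CLH2 (AT5G43860) went the other way, with -0.50 and -0.59 in OX7 and -0.43 and -0.44 in OX17, lower on all 4 arrays by a mean of -0.49 ± 0.075 and alike in both transformants. Without CLH1, the breakdown genes had medians of -0.037 in OX7 and 0.23 in OX17.

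**Figure D3:**
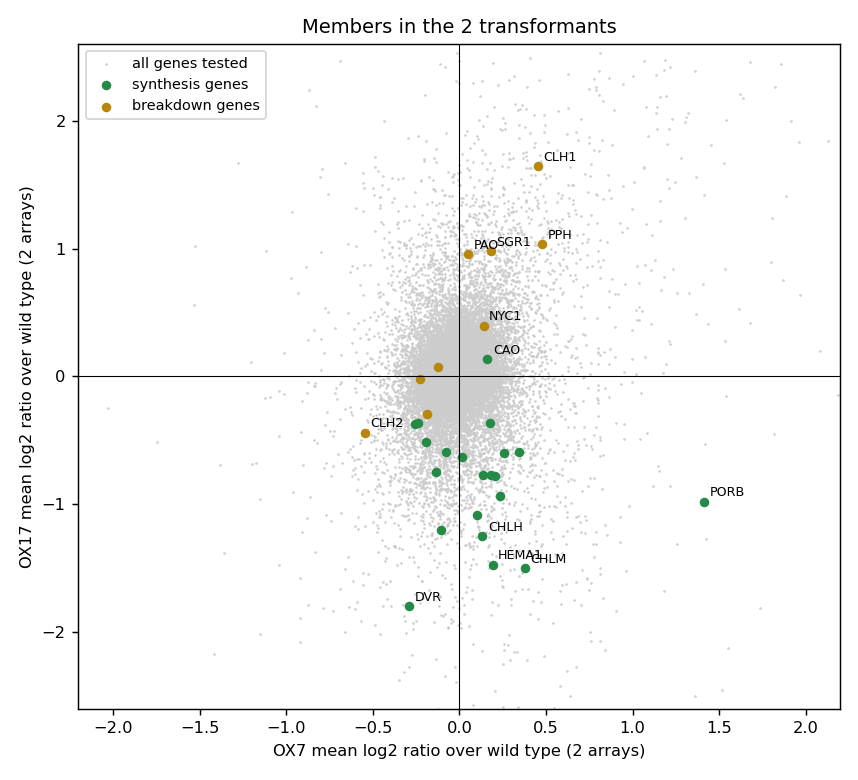
Mean log2 ratio over wild type in OX7 (horizontal axis) and OX17 (vertical axis) for synthesis genes (green), breakdown genes (ochre) and all genes tested (grey, those outside the axes not drawn). Synthesis genes spread along the OX17 axis from -1.80 to 0.13 while most stay within -0.29 and 0.38 in OX7, with PORB apart at 1.41. CLH1 rests on 1 array of each transformant.

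The gap between transformants covered most of the synthesis pathway. Synthesis arrays of OX7 and OX17 did not overlap for 18 of 21 genes, and for 6 of the 8 breakdown genes measured on every array, against 51.1% of all tested genes. The OX17 mean was below the OX7 mean for all 21 synthesis genes, from -2.39 for PORB to -0.027 for CAO, though for HEMB1, LIN2 and CAO the sign of that difference changed under some alternatives. For 10 synthesis genes and 0 breakdown genes, both OX7 arrays lay above 0 and both OX17 arrays below, where 17.3% of all tested genes had opposite signs in the transformants, in either order. With median centring this held for 3 synthesis genes, HEMC, HEME2 and PORB, and the share of all tested genes is not given for that setting. Each transformant was 1 plant with 1 RNA pair, so the difference between them has no replicate and was not tested.

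The signal of each channel was compared between OX17 and OX7 arrays of the same dye orientation, to see in which channel the gap lay. For the synthesis genes the median difference, OX17 minus OX7, was -1.23 in the TaSK5 channel and -0.15 in the wild-type channel on the log2 scale, against 0.0029 and -0.020 for all genes tested. HEMA1 had -1.85 in the TaSK5 channel and -0.19 in the wild-type channel, and CHLM -1.97 and -0.094. PORC had -1.41 and -0.55, and CAO had nearly equal shifts in both. For PAO the wild-type channel moved by -0.39 and the TaSK5 channel by 0.51, so both channels entered its gap.

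**Figure D4:**
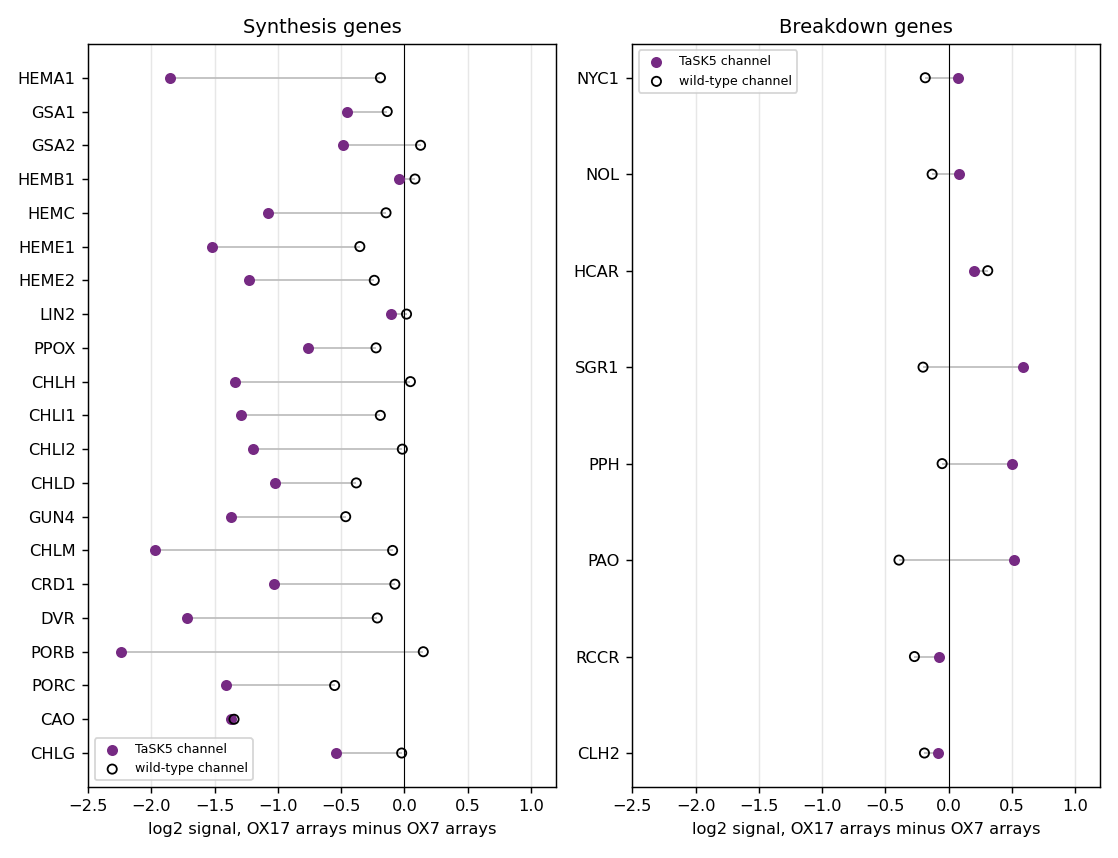
Difference in log2 signal between OX17 and OX7 arrays of the same dye orientation (horizontal axis) for each member, with filled symbols for the TaSK5 channel and open symbols for the wild-type channel. For most synthesis genes the filled symbol lies far to the left and the open symbol near 0; for CAO both lie at -1.37 and -1.35. CLH1 has no value because of its spots marked as outliers.

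Genes that neighbour the pathway were read from lists. Of 12 further synthesis genes (second copies of early enzymes, the regulators FLU and GBP, and helpers of the late steps), 10 were tested. In OX17, 9 of these 10 were lower on both arrays, where 33.2% of all tested genes were. Their median was -0.46 in OX17 and -0.0094 in OX7. With median centring 7 of the 10 were lower on both OX17 arrays, with a median of -0.48, against 21% of all tested genes. On all 4 arrays, 2 were lower and 0 higher with loess, where 12.2% and 12.4% of all tested genes were. With median centring 4 were lower on all 4 arrays, and the share of all tested genes is not given for that setting. None of the 10 passed the limma test. CHLP (AT1G74470), the geranylgeranyl reductase that makes the phytol chain, had log2 ratios of 0.23 and 0.35 in OX7 and -1.39 and -1.64 in OX17, much like CHLM. Unlike CHLM, its gap lay in both channels, at -1.08 in the TaSK5 channel and 0.73 in the wild-type channel (OX17 minus OX7 arrays, log2 signal). LIL3:1 (AT4G17600), which anchors CHLP in the thylakoid, had OX7 and OX17 means of -0.030 and -0.93, and its homologue LIL3:2 (AT5G47110) of -0.070 and -0.69.

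The haem, siroheme and bilin branch leaves the same route before magnesium is inserted or drains other intermediates. Its 9 genes had medians of -0.043 in OX7 and -0.11 in OX17, and 0 passed the limma test. On all 4 arrays, 1 was higher and 2 were lower with loess, where 12.4% and 12.2% of all tested genes were. With median centring 2 were higher and 1 was lower, and the shares of all tested genes are not given for that setting. HO3 (AT1G69720), a haem oxygenase, stood at 0.45 ± 0.36 (SD, n = 2 transformants), FC2 (AT2G30390), the ferrochelatase of green tissue, at -0.33 ± 0.051 and HO2 (AT2G26550) at -0.21 ± 0.24. FC2 was lower on all 4 arrays by about the same amount in both transformants, -0.29 and -0.37.

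Of 5 further breakdown genes, 4 were tested, with 1 above and 1 below wild type on all 4 arrays. The shares of all tested genes were 12.4% and 12.2%. With median centring 0 of the 4 were of either kind, and the shares of all tested genes are not given for that setting. None passed the limma test. CYP89A9 (AT3G03470), a cytochrome P450 that acts on breakdown products, had log2 ratios of 0.015 and 0.26 in OX7 and 0.74 and 0.81 in OX17. VTE5 (AT5G04490), a phytol kinase that salvages released phytol, had -0.099 in OX7 and 0.75 in OX17, with -0.0099 between the array pairs in the TaSK5 channel and -0.86 in the wild-type channel. MES16 (AT4G16690), a demethylase of the products, stood at -0.19 ± 0.16. SGRL (AT1G44000) was left out, since both of its OX7 spots were marked as outliers, as was that on OX17 replicate 1. With marked spots kept, its ratios were -0.11 and 0.029 in OX7 and -1.11 and -0.79 in OX17.

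Transcription factors that control the pathway were read in the same way. Of 9 transcription factors that control synthesis genes, 2 stood above and 2 below wild type on all 4 arrays with loess. Of all tested genes, 12.4% and 12.2% did, and 0 of the 9 factors passed the limma test. With median centring 1 stood above and 2 below, and the shares of all tested genes are not given for that setting. The 3 of largest mean were GNC, GNL and HY5, all of which are known to promote chlorophyll accumulation. GNC (AT5G56860), a GATA factor, had log2 ratios of -0.15 and -0.44 in OX7 and -1.98 and -2.56 in OX17. Its close relative GNL (AT4G26150) had 0.094 and 0.060 in OX7 and -2.88 and -2.26 in OX17. HY5 (AT5G11260), the bZIP factor of light signalling, had -0.27 and -0.28 in OX7 and -2.01 and -2.34 in OX17. In OX17 all 3 were over 4-fold lower, 4.82-fold for GNC, 5.93-fold for GNL and 4.53-fold for HY5, and in OX7 none was beyond 1.22-fold. Much of this gap lay in the wild-type channel, where the signal on OX17 arrays minus that on OX7 arrays was 1.32 for GNC, 2.24 for GNL and 2.29 for HY5 on the log2 scale. In the TaSK5 channel the same difference was -0.66, -0.40 and 0.39, so HY5 signal in TaSK5 plants was higher on the OX17 arrays. The part of the wild-type RNA in these ratios was not tested beyond these values. The other 6 had means from 0.024 for FAR1 to 0.83 for PIF3 (AT1G09530), a repressor of synthesis genes in darkness chosen for mention after its values were seen, with 0.23 and 0.39 in OX7 and 1.38 and 1.34 in OX17. PIF3 differed by 0.32 in the TaSK5 channel and -0.73 in the wild-type channel. GLK1 (AT2G20570), a main activator of the synthesis genes, stood at 0.12 in OX7 and 0.46 in OX17, and its homologue GLK2 (AT5G44190) at 0.19 and -0.014, and with median centring GLK1 was below 0 on 3 of the 4 arrays.

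Of 12 regulators linked to breakdown, 9 were tested, with 6 above and 0 below wild type on all 4 arrays, where 12.4% and 12.2% of all tested genes were. With median centring 2 were above and 0 below on all 4 arrays, and the shares of all tested genes are not given for that setting. Their medians were 0.26 in OX7 and 0.51 in OX17, and 0 passed the limma test. ORE1 (AT5G39610), a NAC factor that activates chlorophyll breakdown genes in senescence, had log2 ratios of 0.34 and 0.31 in OX7 and 3.08 and 3.05 in OX17, 1.25-fold in OX7 and 8.37-fold in OX17. Between the array pairs (OX17 minus OX7, log2 signal), ORE1 differed by 0.82 in the TaSK5 channel and by -1.92 in the wild-type channel, the larger of the 2. NAP (AT1G69490), a further senescence NAC factor, had 0.22 and 0.60 in OX7 and 2.30 and 2.68 in OX17, with differences of 0.97 and -1.11 in these channels. MYC2 (AT1G32640), the main factor of jasmonate responses, showed the reverse order, with log2 ratios of 0.94 and 1.09 in OX7 and -0.011 and 0.045 in OX17, and with median centring of 0.27 and -0.72 on the OX17 arrays. Its signal was higher on OX17 than on OX7 arrays in both channels, by 0.60 in the TaSK5 channel and 1.60 in the wild-type channel, so the order of the ratios came with the larger wild-type difference.

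**Figure D5:**
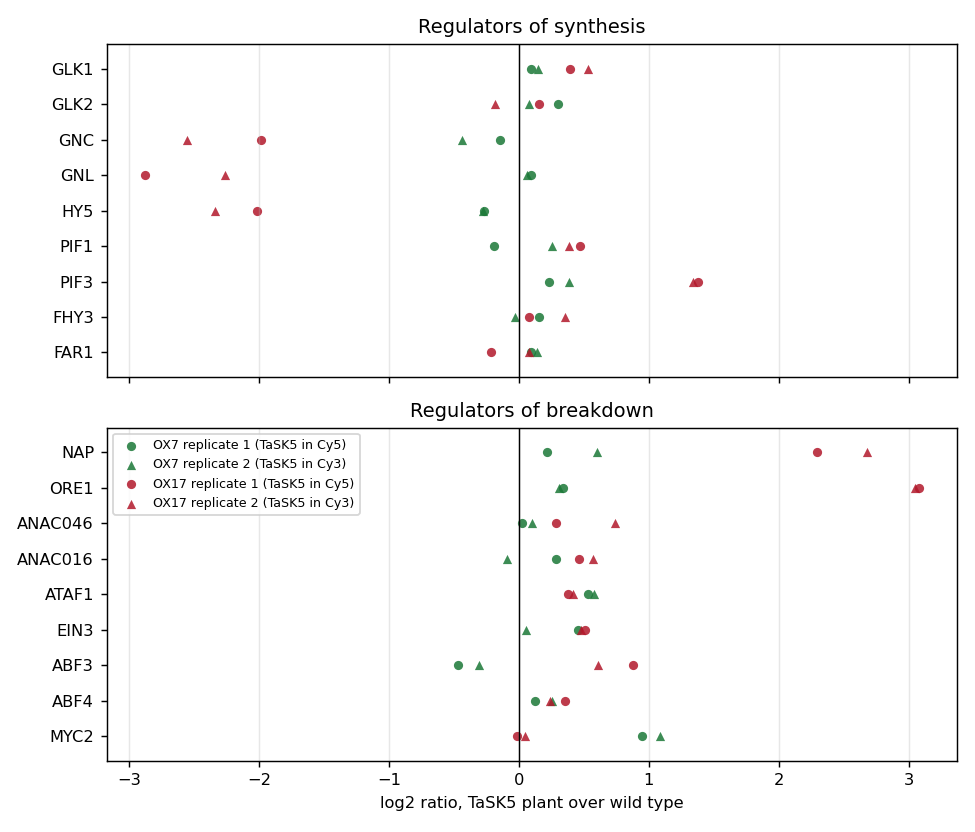
Log2 ratio of TaSK5 plant over wild type (horizontal axis) on each array for 9 regulators of synthesis and 9 regulators of breakdown, with green for OX7, red for OX17, circles for replicate 1 and triangles for replicate 2. GNC, GNL and HY5 lie far to the left and ORE1 and NAP far to the right on both OX17 arrays, while the OX7 symbols of these genes lie between -0.44 and 0.60.

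Markers of senescence, a state in which leaves break chlorophyll down, were set beside these values. Among 4 senescence markers, SAG12 (AT5G45890) stood at 0.046 in OX7 and 0.074 in OX17. SEN1 (AT4G35770) had a higher ratio in OX7, at 1.62, than in OX17, at 0.53, and WRKY53 (AT4G23810) likewise, at 1.41 and 0.73. From OX7 to OX17 arrays, SEN1 signal differed by -0.22 in the TaSK5 channel and 0.87 in the wild-type channel, and WRKY53 signal by 2.04 and 2.72, so WRKY53 signal was higher on the OX17 arrays in both. SAG13 (AT2G29350) had a higher ratio in OX17, at 2.88 on 1 array, than in OX7, at 1.18. The ratios of these markers therefore did not follow a single order between the transformants. On the 3 arrays with a value for all 4 markers, their summed signal ran from 12.81 to 13.83 in the TaSK5 channels and from 11.58 to 12.11 in the wild-type channels on the log2 scale. All 4 were well above background in every channel. Their part in the values of the breakdown genes was not tested.

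Markers of leaf cells were set beside them too. Of 5 mesophyll markers, 4 were higher on both OX7 arrays, where 30.2% of all tested genes were (3, against 31.1%, with median centring). On both OX17 arrays 3 were lower, where 33.2% of all tested genes were (4, against 21%, with median centring). The marker medians were 0.59 in OX7 and -0.29 in OX17. The OX7 median was the LHCB1.3 value. LHCB1.3 signal differed widely between replicates 1 and 2 in both channels of both transformants. On OX7 replicates 1 and 2 it was 7.49 and 11.93 in the TaSK5 channel and 7.18 and 11.06 in the wild-type channel (log2 scale). On OX17 replicates 1 and 2 it was 7.03 and 10.26 in the TaSK5 channel and 7.65 and 11.18 in the wild-type channel. All 4 guard cell markers were lower on both OX17 arrays, where 33.2% of all tested genes were (3, against 21%, with median centring). Their median was -0.36 in OX17 and -0.093 in OX7. The summed mesophyll signal was 17.24 to 17.26 in the TaSK5 channels of OX7 and 16.67 to 17.02 in those of OX17 on the log2 scale, with 16.59 to 16.68 and 16.86 to 17.27 in the wild-type channels. The mesophyll sums and the OX17 median rest in part on saturated spots, since RBCS1A was saturated in 3 of 4 TaSK5 and 4 of 4 wild-type channels and PSBO1 in 1 and 2. The summed guard cell signal was 10.61 to 10.87 in the TaSK5 channels of OX7 and 10.02 to 10.27 in those of OX17, with 10.81 to 10.87 and 10.39 to 10.67 in the wild-type channels. All 5 mesophyll and all 4 guard cell markers were well above background in every channel, and the part of these markers in the synthesis gene values was not tested.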

How the data were processed

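Total RNA of rosette leaves (500 ng, linearly amplified, per the labels' protocols) was compared on 4 two-colour arrays. Per the file headers, Agilent Feature Extraction 7.5.1 measured the mean and background intensity of each spot for both dyes. It also wrote a log10 ratio (Cy5 to Cy3) after its own background subtraction and dye normalisation, per the file headers. A table of log2 ratios was deposited too, for which the submitters' processing notes list limma. How its background was corrected and its values centred is not given in the sources used here. Compared with the loess ratios, its columns had the direction Cy5 to Cy3 (r from 0.992 to 0.998) and medians of -0.00408 and 0.00358 for OX7 replicates 1 and 2 and of -0.00543 and 0.00486 for OX17.

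Intensities were corrected by normexp (offset 50) and normalised by loess within arrays, with 1075 control spots at weight 0, in limma 3.58.1 and R 4.3.3. Outlier-marked spots were left out, and 17 genes without a value in 1 transformant were not tested. Loess sets the typical ratio to 0 at every brightness, and the offset shrinks ratios of dim spots. Channel signals were compared after an added Aquantile step between arrays. Both arrays of each transformant were averaged first, and limma (lmFit, eBayes) compared these 2 means with 0 in a two-sided test on 1 residual and 2.00 prior degrees of freedom, with Benjamini-Hochberg adjustment across 18854 genes. The procedure was tested on simulated data. Replicate numbers mark dye orientation, not paired plants.

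Names follow the TAIR10.1 gene table, where all 32 members were found. Coordinates are left out because the files name no build for the probes. The members, lists and tests were chosen with earlier results of these data known. Values on every array were given for members with 1 sign on all 4 arrays and a mean of at least 0.3, for the 4 largest gaps between transformants without overlap, and for members of opposite sign in the transformants with a gap of at least 0.5. Other members were given by array where they complete a step. Of each further list, the 3 genes of largest mean were named. Alternatives covered background, normalisation, filters, arrays left out and the authors' table.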

Additional observations from a re-analysis of the deposited data

Results flagged for a closer look

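For 10 of the 21 synthesis genes tested, both OX7 arrays lay above wild type and both OX17 arrays below it. Of all tested genes, 17.3% had opposite signs in the transformants, in either order. The difference between the transformants was not tested, since each transformant gives 1 RNA pair. OX17 minus OX7, on the log2 ratio scale, was -2.39 for PORB, -1.88 for CHLM, -1.66 for HEMA1, -1.38 for CHLH and -1.17 for HEME1. It was -0.99 for HEME2, -0.95 for CRD1, -0.93 for HEMC, -0.86 for PORC and -0.54 for PPOX. The OX7 value of CHLH on replicate 2 was 0.0027, hardly above 0. With median centring only HEMC, HEME2 and PORB kept opposite signs, and the PPOX gap was -0.30. The share of all tested genes with opposite signs is not given for that setting. With background correction at offset 0 the PORB gap was -3.22.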

How the results depend on the processing

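No gene passed the limma threshold under the averaged design or under 14 of 16 alternatives. With the 4 arrays counted as independent 79 genes passed, and with the replicate number, which marks dye orientation, as a replicate block 1 gene passed, with 0 members in either case. Deviations of same-numbered arrays correlated at r = 0.56 across genes, over 2 pairs, and the numbers do not pair plants. Synthesis genes lower on all 4 arrays numbered 11 with median centring. When 1 array was left out, 5 to 8 were lower on every remaining array. That is a looser count, and its share of all tested genes is not given. Breakdown genes higher on all 4 arrays numbered 0 with median centring. The shares of all tested genes moved with that setting too, to 44.2% lower on both OX7 arrays and 21% higher on both OX17 arrays. The synthesis median was 0.14 in OX7 alone, above 0, and -0.77 in OX17 alone, and the breakdown median minus the synthesis median was -0.087 and 1.17. The same 20 synthesis genes were lower on every OX17 array used under all 13 alternatives that changed processing or arrays. The mean ratio changed sign for HEMC with scaling between arrays, for CAO with median centring, and for RCCR when OX7 replicate 1 or OX17 replicate 2 was left out. The gap between transformants changed sign under some alternatives for HEMB1, LIN2, CAO and HCAR. The cause of these changes was not tested. For PORA, the wild-type signal was near background, so its ratio is uncertain.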
